A study of Homo sapiens with 6 samples.

Results

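The cytosolic ribosomal protein genes were taken from the deposited table as every gene whose symbol is RPL, RPS or RPLP followed by a number and, where present, one of the endings A, X, L, L1 or AL. Of 21134 genes listed, 83 met this rule, 52 of the large subunit and 31 of the small subunit. The large subunit genes include RPLP0, RPLP1 and RPLP2, the acidic proteins of the stalk. Among the 83 genes, 7 encode variant paralogs of another member (RPL3L, RPL7L1, RPL22L1, RPL26L1, RPL36AL, RPL39L and RPS27L), and the remaining 76 are called core genes here. The rule leaves out RPSA and FAU, which also encode proteins of the cytosolic ribosome, and all 77 genes of the mitochondrial ribosome. The rule reads symbols only and no measured value, although the family itself was taken up with earlier results of these data known.

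Each ribosome holds 1 copy of most of these proteins, bound to ribosomal RNA, and the stalk proteins are the known exception. Their mRNAs are among the most abundant of any cell, and many begin with a cytosine at the head of a run of pyrimidines, the 5′ terminal oligopyrimidine (TOP) tract, through which mTORC1 signalling and the protein LARP1 control their translation. A few members have paralogs whose proteins can stand in for them. RPL3L is made in skeletal muscle and heart, where it is known to take the place of RPL3 as muscle matures. RPL22L1 is a paralog of RPL22 that RPL22 protein is known to repress, and RPS27L is a paralog of RPS27 known as a target of p53.

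RNA was sequenced from cardiomyocytes made from stem cells (hiPSC-CMs). The labels give the line as H9, which is an established line of human embryonic stem cells and so 1 genetic background for all groups. The study compared 3 groups of 2 libraries each. The control cells had no treatment, the alcohol cells had 100 mM alcohol for 24 h, and the co-treated cells had both 100 mM alcohol and losartan at 1 μM over the same 24 h. Losartan blocks the angiotensin II type 1 receptor, and the study used it to ask whether this receptor takes part in alcohol injury. No group had losartan alone, so an effect of losartan without alcohol cannot be told apart from one that needs alcohol. No label says whether the 2 libraries of a group came from separate cultures, so p-values measure the spread between these libraries, which may be technical.

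The expected counts, which are the authors' estimates of reads per gene, summed to 4898287 to 5051448 per library. A count of 0 therefore allows a level of up to 3 counts, 0.594 to 0.612 CPM (counts scaled to the library total), and this limit covers counting error only. All 12 cardiomyocyte marker genes were tested and together held 46670 to 55790 CPM in every library, against 2336 to 2894 CPM for 8 fibroblast markers, 33.7 to 61.7 CPM for 4 endothelial markers and 35.7 to 55.1 CPM for 6 pluripotency markers. The cells are a mixture within each library, and in such bulk samples fewer cells of a type cannot be told apart from less RNA per cell. Replicate 2 of control and of alcohol stood apart in ventricular and atrial myosin genes, with a MYL2 FPKM of 863 and 821 where the other 4 libraries had 2139 to 2862, and a MYH6 FPKM of 717 and 737 where the other 4 had 305 to 381.

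The start sites of these genes showed the letters for which the family is known. RefSeq promoter entries (GRCh38.p14) were found for 66 of the 83 members, and a run of 5 or more C or T letters beginning with C was searched on the coding strand only. Read from the annotated start base itself, 42 of 66 members had such a run (63.6%), against 4.04% of the 27305 promoters in the table. Within 10 bases on either side of the start a run lay in 52 of 66 members (78.8%), against 28.0% of all promoters. These are matches of letters at annotated starts, and the starts used in these cells were not measured. The windows shown, with 10 bases before the start and 15 from it, belong to the 2 members with the highest level, to RPLP0 and RPL3, to RPL18, and to the 2 paralogs that differed most between groups with their parent genes. Capitals mark the longest pyrimidine run within 10 bases on either side of the start, and the run of RPLP1 goes on past that window. A shorter run before the start of RPS27 is left in lower case.
RPLP1 (chr15:69452808-69452832, plus strand): ggcgcgagagCCCCTTTCCTcagct
RPL41 (chr12:56116623-56116647, plus strand): cttcgCCTTTCTCTCggccttagcg
RPLP0 (chr12:120201097-120201121, minus strand): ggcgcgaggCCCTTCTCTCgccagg
RPL3 (chr22:39319609-39319633, minus strand): gccgaccggCCTCTaccggcgggat
RPL18 (chr19:48619164-48619188, minus strand): agcccgttCTCTCTTTCCggacctg
RPL22 (chr1:6199581-6199605, minus strand): cgctcaCCTCCCTTTCTaactccgc
RPL22L1 (chr3:170870181-170870205, minus strand): ccgtagCTTCCTCTCTgctctcgcg
RPS27 (chr1:153990752-153990776, plus strand): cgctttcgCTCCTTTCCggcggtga
RPS27L (chr15:63157463-63157487, minus strand): gatgccgagcgcagatcgcttgcag

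The run of RPL22L1 spanned the start as that of RPL22 does. The window of RPS27L held no run, while the longest run in that of RPS27 had 9 letters. The run of RPL3 lay at the start but was only 5 letters long and began before the annotated base. The members lie on 21 chromosomes, with 12 on chromosome 19 and 8 on chromosome 3, and the genes range from RPL41 (chr12:56116633-56117967, 1335 bases) to longer ones such as RPL22 (chr1:6185020-6199595, 14576 bases). The 42 members with a run read from the start base had a median control level of 572.5 FPKM, and the 24 without one a median of 499.4 FPKM. The class without a run holds the variant paralogs RPL26L1, RPL7L1, RPS27L and RPL36AL, and the other only RPL22L1. Over core genes alone the class without a run had the higher median, so these medians do not link a run with a higher level. The 17 members without a promoter entry had a median of 726.6 FPKM. FPKM is the authors' value scaled by transcript length and by the reads of a library. It is the scale on which levels of different genes are compared, unless CPM is named. The ranges of the classes with and without a run overlapped widely, 22.6 to 2090 FPKM against 30.04 to 1033 FPKM. By the log2 difference between alcohol and control the class with a run had a median of 0.06 and the class without one of 0.02, so both sat close to 0.

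Ribosomal protein mRNAs were among the most abundant in the untreated cells. Of the 100 genes with the highest mean control FPKM, 45 were members, and 68 members stood among the top 200 and 76 among the top 500. The median member had 583.6 FPKM in control, with quartiles at 360 and 889 FPKM, while the median of the 19609 genes above 0 was 4.71 FPKM. Large subunit genes had a median of 578.6 FPKM and small subunit genes of 595.6 FPKM. The summed FPKM of large subunit genes was 1.46 to 1.53 times that of small subunit genes in all 6 libraries. Member transcripts are short, with a median length of 737 bases against 2579 bases for all genes above 0, and their share of FPKM was larger than their share of counts.

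**Figure D1:**
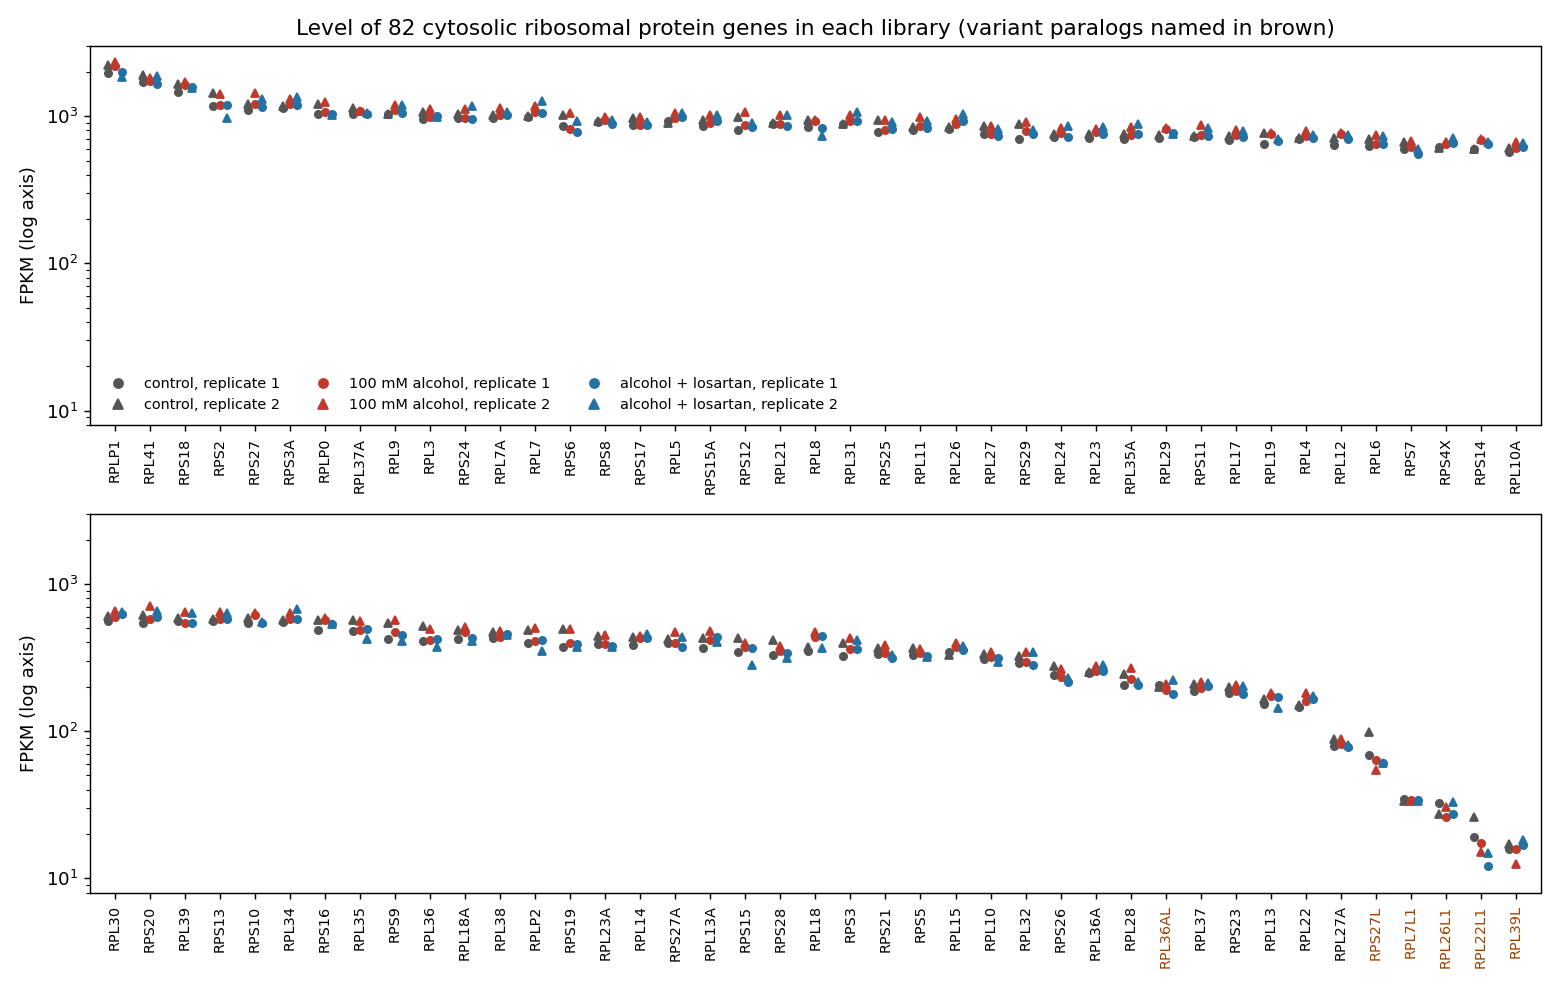
Level of the 82 ribosomal protein genes with a count in every library, in FPKM on a log axis, sorted by mean control level over both panels, with 1 point per library (circles replicate 1, triangles replicate 2; grey control, red alcohol, blue co-treated). The core genes spread from RPLP1 at 2090 FPKM to RPL27A at 84.3 FPKM in control, and 5 of the 6 variant paralogs shown, named in brown, sit below RPL27A.

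RPLP1, a stalk protein that helps translation factors bind, was the highest member. It had 1970 and 2209 FPKM in control, 2177 and 2335 FPKM with alcohol, and 1999 and 1832 FPKM in co-treated cells. RPL41, the smallest protein of the large subunit, followed with 1706 and 1916, 1729 and 1819, and 1647 and 1866 FPKM in the same order. The control and alcohol groups overlapped for both genes. RPS18, a protein of the small subunit head, had 1469 and 1654 FPKM in control, 1622 and 1696 FPKM with alcohol, and 1577 and 1547 FPKM in co-treated cells. RPS2, at the mRNA entry side of the small subunit, had 1176 and 1430, 1189 and 1409, and 1182 and 976 FPKM. RPS27 completed the top 5 with a control mean of 1157 ± 73.0 FPKM (SD, n = 2). Neighbours in this order, such as RPS2 (1303 ± 180 FPKM, SD, n = 2) and RPS27, had overlapping values, 1176 and 1430 against 1105 and 1208 FPKM.

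By FPKM core genes differed in level by up to 24.8-fold, from RPLP1 (511 bases), a stalk gene, to RPL27A (4906 bases). In control CPM this pair had 950 and 1069 against 394 and 440, so the fold depends largely on the transcript lengths used. It is therefore not set against the 1 copy of most of these proteins in each ribosome. The order of the 76 core genes was stable, with Spearman's rho of FPKM between 0.962 and 0.996 over the 15 pairs of libraries. That is a description across genes that share libraries and are not independent. By FPKM RPL27A was the lowest core gene at 79.7 and 88.8 in control, and RPL22 came next at 147 and 151. Both were scaled by long transcripts, 4906 bases for RPL27A and 2099 bases for RPL22, against a median of 737 bases for members. By CPM RPL27A was not the lowest: RPL28 had 183 and 222 CPM in control, under the 394 and 440 CPM of RPL27A. Over all 6 libraries the CPM of the median member had a coefficient of variation of 7.61%, against 14.9% over all genes tested and 9.19% over the 703 genes at least as high as RPL27A in control. All 76 core genes stayed under 20%, with RPS19 at the top (13.9%). RPS27L (23.2%) and RPL22L1 (27.2%) lay above them.

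RPL3, which sits near the peptidyl transferase centre (chr22:39312882-39319623), was an abundant member, at rank 39 of all genes in control. It had 958 and 1060 FPKM in control, 987 and 1114 FPKM with alcohol, and 1008 and 984 FPKM in co-treated cells, so the 3 groups overlapped. RPL3L (chr16:1943974-1954689), its muscle paralog, had 2 and 0 counts in control, 0 and 0 counts with alcohol, and 1 and 0 counts in co-treated cells. All 6 libraries therefore lay at or under the 3 counts that a count of 0 allows, and no fold change between groups is given for it. As a ratio to RPL3 its FPKM was 0.0271% in control replicate 1, 0.0129% in co-treated replicate 1 and 0 in the other 4 libraries, values that rest on 2 counts or fewer. RPL3L was the only member that did not pass the expression filter. In these cells, whose MYH7 level was 2084 to 3429 FPKM, RPL3L mRNA was not detectable above this limit.

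The other variant paralogs were present at a fraction of their parents. RPL36AL, which differs little from RPL36A, was the exception at 80.9% ± 3.59 (SD, n = 2) of the parent's control FPKM. RPL22L1 stood at 15.1% ± 3.01 of RPL22, RPS27L at 7.16% ± 1.38 of RPS27, RPL26L1 at 3.64% ± 0.508 of RPL26, RPL7L1 at 3.42% ± 0.133 of RPL7 and RPL39L at 2.88% ± 0.0657 of RPL39 (each SD, n = 2). RPL7L1, whose product is known from ribosome assembly, varied least of these, between 33.3 and 34.5 FPKM over all 6 libraries. RPL26L1 lay between 26.0 and 33.1 FPKM, and its groups overlapped in every comparison. RPL39L had 15.80 and 12.47 FPKM with alcohol, under the 15.87 and 17.2 FPKM of control and the 16.8 and 18.2 FPKM of co-treated cells.

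Some of these levels depend on how reads were shared between near-identical genes. The table also lists 23 processed pseudogenes named after members, which together held 1.29% to 1.42% of the members' counts. Most of that was RPL13AP5, with 617 to 702 FPKM and 1945 to 2175 counts per library, close to RPL13A itself with 2195 to 2772 counts, so the level of RPL13A is uncertain. Reads of RPL36A and of the read-through gene RPL36A-HNRNPH2 (732 to 1024 counts, against 1197 to 1299 for RPL36A) could likewise be split between them. RPL17-C18orf32 had 92.5 and 52.3 counts in control, 39.4 and 17.7 with alcohol and 91.2 and 78.2 in co-treated cells, and RPS10-NUDT3 had 44.9 and 34.2, 42.1 and 20.7, and 93.2 and 141.5 counts. None of the 3 read-through genes was called by edgeR in any comparison, and the smallest adjusted p was 0.0601, for RPS10-NUDT3 between co-treated and control cells.

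The share of reads spent on ribosomal protein genes was similar in the 3 groups. Members took 3.71% and 4.07% of expected counts in control, 3.93% and 4.35% with alcohol, and 3.83% and 4.02% in co-treated cells. The means were 3.89% ± 0.252, 4.14% ± 0.297 and 3.92% ± 0.131 (SD, n = 2 each), so the groups overlapped and differed by less than the spread between the control libraries. Replicate 2 was higher than replicate 1 in every group. Of the summed FPKM members took 11.9% ± 0.658, 12.8% ± 1.08 and 12.2% ± 0.290 (SD, n = 2 each). An exact permutation test of 2 libraries against 2 cannot go below a two-sided p of 0.3333, so no test of the share was made.

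**Figure D2:**
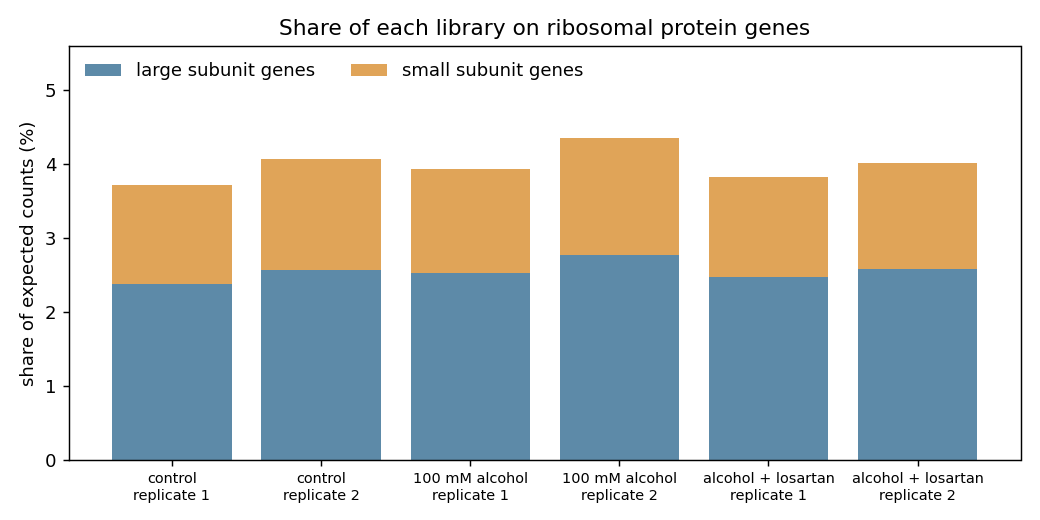
Share of each library's expected counts on large subunit genes (blue) and small subunit genes (orange), in percent, stacked, with 1 bar per library and the axis starting at 0. The bars reach 3.71% to 4.35%, and in each group replicate 2 is the taller one.

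The first comparison asked which of these genes differed after 24 h of alcohol. None of the 82 members tested passed the threshold, an adjusted p under 0.05 by edgeR's quasi-likelihood test with Benjamini-Hochberg adjustment over all 14926 genes, of which 10 passed (0.067%). At an unadjusted p under 0.05 there were 3 members (3.66%), against 11% of all genes, and DESeq2 called 0 members and also had 3 at an unadjusted p under 0.05. The median member differed by 0.05 on the log2 scale, against −0.00 for all genes, with 58 members above 0 and 24 below. For 32 members (39%) the 2 alcohol libraries lay wholly above or below the 2 control libraries by TMM-scaled CPM, 29 of them above, and the same held for 43.8% of all genes. The 95% interval of the difference lay within 1.5-fold in either direction for 79 of 82 members, all but RPL22L1, RPL39L and RPS27L.

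RPL18, a protein of the large subunit (chr19:48615331-48619178), had the largest positive difference. Its FPKM was 348 and 374 in control, 435 and 470 with alcohol, and 441 and 369 in co-treated cells. The alcohol libraries lay above both controls, with a log2 difference of 0.29 (SE 0.12, adjusted p = 0.407, edgeR), which does not pass. RPS14, which lies on the small subunit platform and whose gene is lost in 5q- syndrome, had 594 and 597 FPKM in control, 688 and 695 FPKM with alcohol, and 643 and 671 FPKM in co-treated cells. The control pair and the alcohol pair each lay closer together than the gap between them, yet the log2 difference was 0.17 (SE 0.11) with an adjusted p of 0.635 by edgeR. RPL22 followed at 0.16 (SE 0.12), with 147 and 151 FPKM in control, 160 and 182 FPKM with alcohol and 165 and 173 FPKM in co-treated cells.

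The 3 largest negative differences were all variant paralogs, and all 6 variant paralogs tested had a difference below 0 between alcohol and control, while the parent genes of all 7 variants listed had one above 0, from 0.01 (RPL39 and RPL3) to 0.16 (RPL22). None of these passed the test, and 5 of these 6 are the lowest members tested by FPKM. RPS27L (chr15:63148249-63157477) had 68.3 and 98.2 FPKM in control, 63.8 and 54.1 FPKM with alcohol, and 60.8 and 60.9 FPKM in co-treated cells. All 4 treated libraries lay below both controls, and control replicate 2 stood well above control replicate 1. The log2 difference between alcohol and control was −0.53 (SE 0.17, adjusted p = 0.25, edgeR). Between co-treated and alcohol cells it was 0.03 (SE 0.17, adjusted p = 0.99, edgeR), with a 95% interval from −0.33 to 0.40, which holds changes in both directions. Without control replicate 2 the first difference was −0.25, and without control replicate 1 it was −0.74. As a share of RPS27 it was 6.18% and 8.13% in control, 5.31% and 3.78% with alcohol, and 5.24% and 4.63% in co-treated cells.

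RPL22L1 (chr3:170864875-170870195) had 19.0 and 26.1 FPKM in control, 17.3 and 15.1 FPKM with alcohol, and 12.1 and 14.9 FPKM in co-treated cells. These values rest on 191 and 259, 174 and 148, and 119 and 150 counts. By FPKM the 3 groups did not overlap and stood in the order control, alcohol, co-treated, though the lowest alcohol library and the highest co-treated library were only 0.23 FPKM apart. On the TMM-scaled CPM of the comparisons, co-treated replicate 2 was no lower than alcohol replicate 2, so the alcohol and co-treated groups overlapped. The log2 difference from control was −0.50 with alcohol (SE 0.18, adjusted p = 0.329, edgeR) and −0.76 in co-treated cells (SE 0.19, 95% interval −1.17 to −0.36, adjusted p = 0.0987, edgeR), the smallest adjusted p of any member in any comparison. Over the 19 alternative settings tried for the latter, the log2 difference lay between −0.96 and −0.54 and the adjusted p between 0.0552 and 0.509. RPL22, its parent, had values above control in all 4 treated libraries, and RPL22L1 as a share of RPL22 was 12.96% and 17.2% in control, 10.8% and 8.29% with alcohol, and 7.30% and 8.63% in co-treated cells.

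Marker lists of dividing cells, smooth muscle and endothelium also differed in level between these libraries. All 10 proliferation markers were lower with alcohol than in control, 9 of them at an unadjusted p under 0.05 (11% of all genes) and none called. All 10 were higher in co-treated than in alcohol cells, 6 of them at that level (5.55% of all genes) and none called. Their summed level was 784.5 to 1181 CPM in control, 632 to 702 CPM with alcohol and 842 to 1000 CPM in co-treated cells. All 4 smooth muscle markers had log2 differences from control below 0 in both treated groups, with summed levels of 2261 to 2589, 985 to 1993 and 1374 to 1411 CPM. For CNN1 the groups overlapped, with 417 and 279 FPKM in control, 422 and 177 FPKM with alcohol, and 311 and 276 FPKM in co-treated cells. ACTA2, smooth muscle actin, was called lower in co-treated cells than in control (log2 difference −1.25, SE 0.20, adjusted p = 0.0203, edgeR). The summed proliferation markers were highest in control replicate 2, the library where RPS27L and RPL22L1 were also highest. The co-treated libraries did not match in this way. Their summed markers, 842 to 1000 CPM, lay above the lower control at 784.5 CPM, while RPS27L and RPL22L1 lay below both controls there. The 4 endothelial markers summed to 33.7 to 39.1 CPM in control, 42.9 to 50.5 CPM with alcohol and 52.1 to 61.7 CPM in co-treated cells, groups that did not overlap. Singly they did not all move this way: 2 were higher and 2 lower with alcohol than in control (median log2 difference 0.02). In co-treated cells 3 were higher and 1 lower than in control. Of these KDR, a receptor of vascular endothelial growth factor, had log2 differences from control of 0.57 with alcohol (adjusted p = 0.235, edgeR) and 0.86 in co-treated cells (adjusted p = 0.0502, edgeR), neither of which passes. Summed fibroblast markers (2336 to 2568 CPM in control, 2692 to 2867 CPM with alcohol) and hepatic markers (61.6 CPM against 75.5 to 76.0 CPM) were also higher with alcohol. Of those tested, 3 of 8 fibroblast and 1 of 3 hepatic markers were lower. The part of all these lists in the paralogs' values was not tested.

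**Figure D3:**
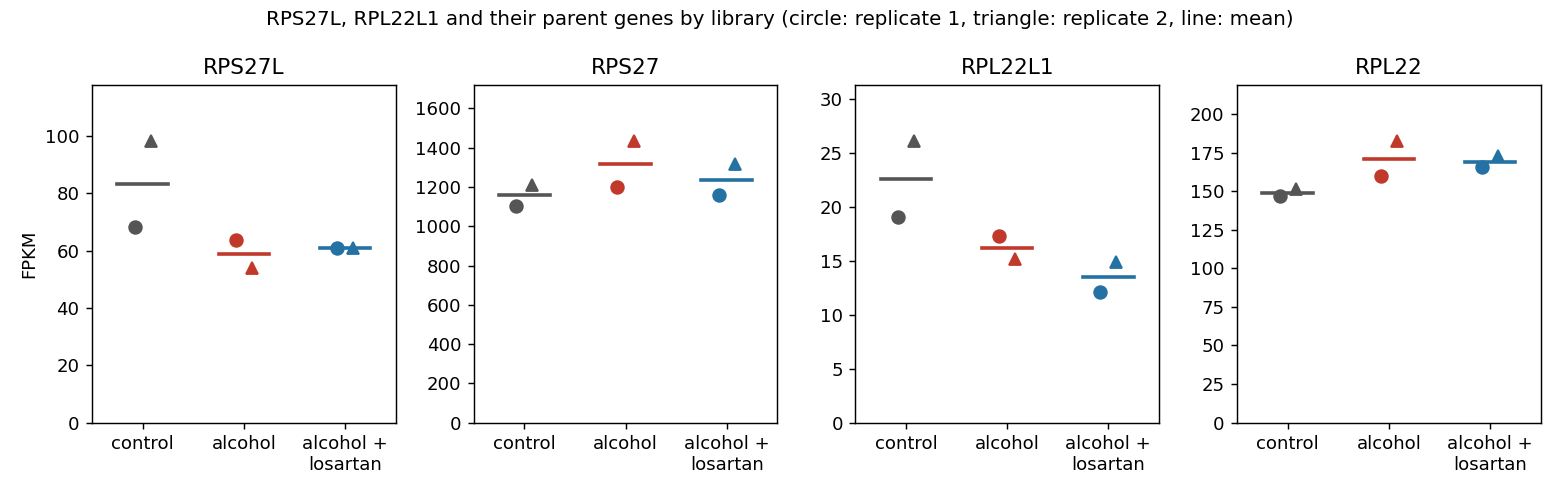
FPKM of RPS27L, RPS27, RPL22L1 and RPL22 in each library, with axes from 0, circles for replicate 1, triangles for replicate 2 and lines for group means of 2 libraries. All 4 treated libraries lie below both controls for RPS27L and RPL22L1, control replicate 2 is the highest point of both, and the treated libraries of RPL22 lie above both controls.

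The second comparison set co-treated cells against cells given alcohol alone and so asks what losartan added. Again 0 of 82 members passed, where 2 of 14926 genes did (0.0134%). By edgeR 1 member had an unadjusted p under 0.05 (1.22%), against 5.55% of all genes, and DESeq2 called 0 members and had 3 at that level. The median member differed by −0.07 on the log2 scale, against 0.00 for all genes, with 63 members below 0 and 19 above. Groups did not overlap by TMM-scaled CPM for 34 members (41.5%), 33 of them lower in co-treated cells, against 33.6% of all genes. The median was −0.05 for large and −0.09 for small subunit genes. The interval lay within 1.5-fold for 80 members, all but RPL22L1 and RPL39L.

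RPL28, a large subunit protein with no bacterial counterpart, was the member under an unadjusted p of 0.05. It had 225 and 270 FPKM with alcohol, 206 and 216 FPKM in co-treated cells, and 205 and 243 FPKM in control, with a log2 difference of −0.28 (SE 0.13, adjusted p = 0.896, edgeR). RPS9, a small subunit protein that binds ribosomal RNA early in assembly, had 472 and 571 FPKM with alcohol and 453 and 412 FPKM in co-treated cells (log2 difference −0.28, SE 0.14), and RPS2 had one of −0.27 (SE 0.14). The co-treated libraries lay below both alcohol libraries for all 3 genes, but by FPKM the gaps were small beside the distance between the alcohol replicates. On the TMM-scaled CPM the gaps were larger relative to that distance, though still smaller than it. The stalk genes had log2 differences of −0.18 (RPLP0), −0.24 (RPLP1) and −0.25 (RPLP2). RPLP0, the scaffold of the stalk and a common reference gene for PCR, had 1033 and 1206 FPKM in control, 1070 and 1242 FPKM with alcohol, and 1031 and 1020 FPKM in co-treated cells, and RPLP2 had 398 and 488, 408 and 503, and 417 and 350 FPKM. RPL39L (0.29, SE 0.25), RPL26L1 (0.09, SE 0.20) and RPL26 (0.08, SE 0.12) had the largest positive differences, each close to or within its standard error.

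The third comparison set co-treated cells against control. None of the 82 members passed, where 54 genes did (0.362%). By edgeR 4 members (4.88%) had an unadjusted p under 0.05, all with values below control (RPL22L1, RPS27L, RPS2 and RPS26), against 12.6% of all genes, and DESeq2 called 0 and had 3 at that level. The median member differed by −0.04 on the log2 scale, against −0.00 for all genes, with 36 members above 0 and 46 below. With counts scaled by library size alone this median was 0.01. Groups did not overlap by TMM-scaled CPM for 30 members (36.6%), 23 of them lower, against 43.3% of all genes. RPS2 had a log2 difference of −0.32 (SE 0.14, adjusted p = 0.374, edgeR), and co-treated replicate 2, at 976 FPKM, was the lowest of the 6 libraries. RPL26 (0.20, SE 0.12), RPL7 (0.17, SE 0.13) and RPL22 (0.13, SE 0.12) had the largest positive differences. RPL26, which binds near the exit tunnel, had 812 and 840 FPKM in control, 890 and 951 FPKM with alcohol, and 922 and 1031 FPKM in co-treated cells, so all 4 treated libraries lay above both controls. The interval lay within 1.5-fold for 78 members, all but RPL22L1, RPS15, RPS2 and RPS27L. Each pair of comparisons shares 1 group of libraries, so the 3 sets of values are not independent.

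**Figure D4:**
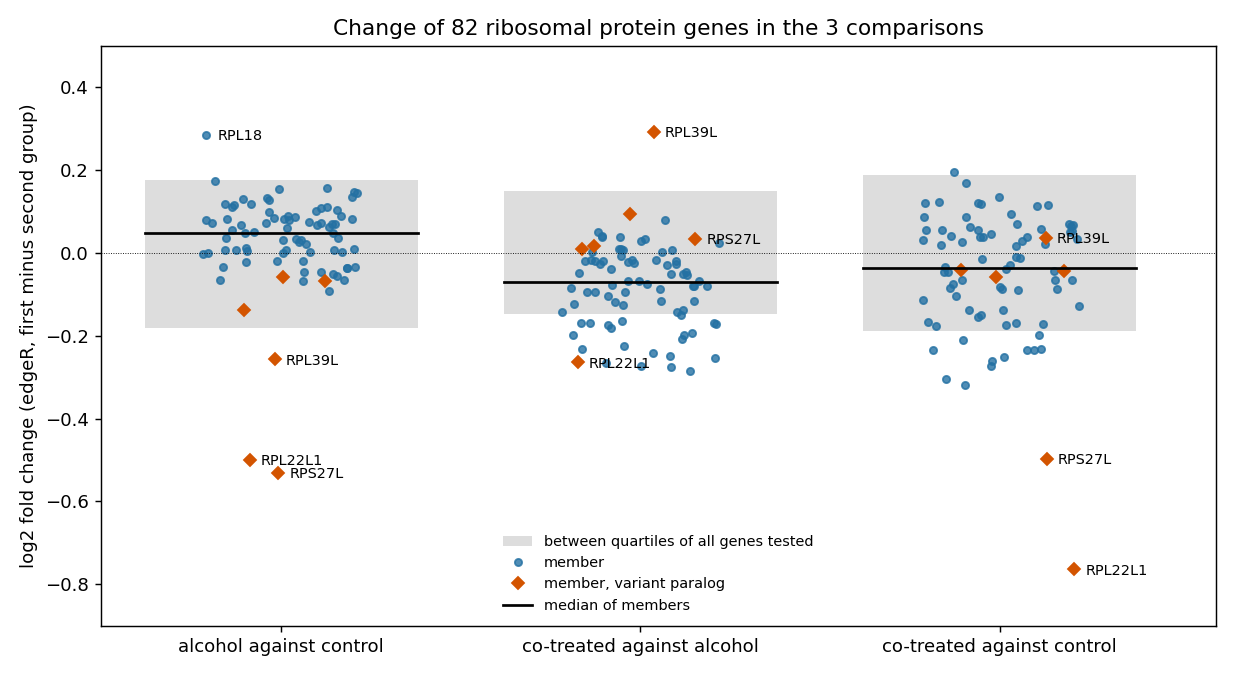
Log2 fold change (edgeR, first group minus second) of the 82 members tested in the 3 comparisons, with 1 point per gene, diamonds for variant paralogs, a line at the median of members and a grey band between the quartiles of all 14926 genes tested. Most members lie within the band, and RPS27L and RPL22L1 stand apart from the rest in both comparisons with control.

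Members also differed between replicate libraries. On the TMM-scaled log2 CPM that the group comparisons use, 68 of 82 members were higher in replicate 2 than in replicate 1 of control. The same was true of 64 members in the alcohol pair and of 65 in the co-treated pair. The median log2 differences were 0.10, 0.06 and 0.11, while the medians of the 3 group comparisons lay between −0.07 and 0.05. With CPM scaled to library totals alone, the counts were 75, 78 and 59 members and the medians 0.13, 0.13 and 0.08. In the co-treated pair the difference followed base composition: over the 81 tested members with a known transcript GC content, it correlated with GC at Pearson's r = −0.78 (Spearman's rho = −0.71), and the median difference was 0.01 for members above the median GC content and 0.19 for the rest. Over the 14365 genes tested with a GC value r was −0.37 in that pair. In the control pair r over members was 0.36 and in the alcohol pair 0.10. These correlations are across genes of the same libraries and describe the libraries.

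**Figure D5:**
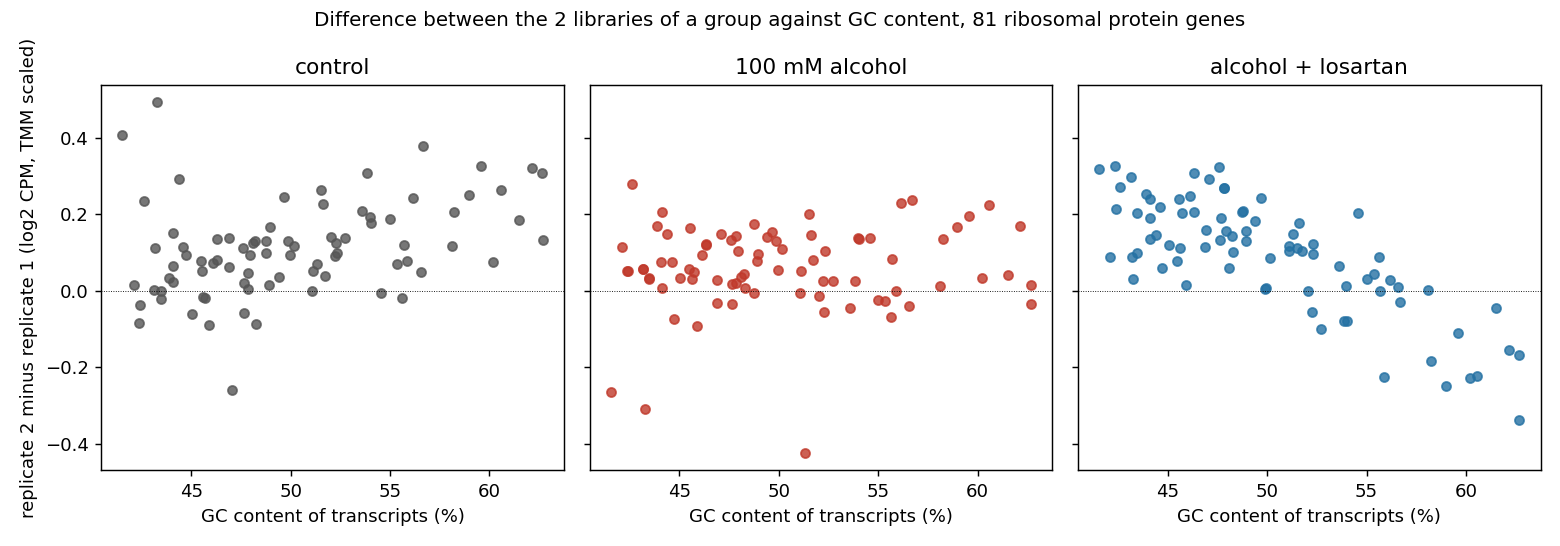
Difference between replicate 2 and replicate 1 (log2 CPM, TMM scaled) against the GC content of the gene's transcripts in percent, for the 81 members with a GC value, in 1 panel per group and 1 point per gene. The points slope down in the co-treated panel (r = −0.78), up in the control panel (0.36) and little in the alcohol panel (0.10).

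The same property showed in the group comparisons. The members' log2 differences correlated with GC content at r = −0.63 between co-treated and alcohol cells, −0.31 between co-treated and control cells and 0.15 between alcohol and control cells. With each library corrected for GC content, a step chosen after seeing the data, these became −0.10, −0.01 and 0.06, and the SD of the members' log2 differences between co-treated and alcohol cells went from 0.104 to 0.0798. The correction removes a trend fitted on GC content, so the weaker correlations follow largely from the step itself and test nothing. The medians over members stayed at −0.07, −0.04 and 0.04, and 0 members were called. The log2 differences of RPL28, RPS9 and RPS2 between co-treated and alcohol cells went from −0.28, −0.28 and −0.27 to −0.23, −0.17 and −0.19 with the correction, keeping their direction.

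The other genes of the translation machinery were described by lists. RPSA and FAU, outside the naming rule, were at the level of members. RPSA had 479 and 574 FPKM in control, 489 and 588 FPKM with alcohol, and 488 and 470 FPKM in co-treated cells. FAU had 238 and 295, 283 and 290, and 271 and 210 FPKM in the same order. Neither was called by edgeR in any comparison. Of 35 initiation factors 0 were called in any comparison by edgeR. At an unadjusted p under 0.05 there were 8, 1 and 8, in the order alcohol against control, co-treated against alcohol and co-treated against control. Over all genes tested the shares at that level were 11%, 5.55% and 12.6% in the same order. EIF4A2, a helicase that unwinds mRNA leaders, had the smallest p of that list, with 202 and 169 FPKM in control, 251 and 273 FPKM with alcohol, and 274 and 308 FPKM in co-treated cells. Both treated groups lay above control, and its log2 difference from control was 0.46 with alcohol (adjusted p = 0.206) and 0.60 in co-treated cells (SE 0.13, adjusted p = 0.0782, edgeR). The alcohol and co-treated groups of EIF4A2 were barely apart, at 273.3 against 273.8 FPKM for their nearest libraries (log2 difference 0.15, SE 0.13, adjusted p = 0.945, edgeR). Of 9 elongation factors 0 were called, and EIF5A, which frees ribosomes stalled at prolines, had log2 differences from control of −0.40 and −0.48 (adjusted p = 0.252 and 0.123, edgeR).

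Regulators and assembly factors likewise had 0 genes called. The counts below stand beside 11%, 5.55% and 12.6% of all genes at an unadjusted p under 0.05 in the same order of comparisons. Of 14 genes of mTORC1 and TOP control, 0, 1 and 0 had an unadjusted p under 0.05 by edgeR, the 1 being AKT1S1, an inhibitory subunit of mTORC1, at a log2 difference of −0.46 between co-treated and alcohol cells (adjusted p = 0.891, edgeR). Of 46 ribosome biogenesis genes 3, 1 and 4 had one, and the medians of the list were −0.08, 0.00 and −0.04. POLR1D, a subunit shared by RNA polymerases I and III, had 51.0 and 48.6 FPKM in control, 66.9 and 74.8 FPKM with alcohol, and 68.1 and 72.5 FPKM in co-treated cells, with log2 differences from control of 0.47 and 0.44 (adjusted p = 0.168 and 0.135, edgeR). Of 10 chaperones and importers of ribosomal proteins 1 had an unadjusted p under 0.05 in each comparison, and GRWD1, the chaperone of RPL3, had a log2 difference of −0.58 between co-treated and control cells (adjusted p = 0.215, edgeR). The 77 mitochondrial ribosomal protein genes had 2, 2 and 3 genes at that level and medians of −0.00, 0.00 and 0.01.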

How the data were processed

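RNA-seq of 6 libraries was analysed, grouped by the treatment in the labels. The values deposited by the authors are an expected count, a FPKM and a transcript length for every gene of a library. A joint table repeats the FPKM beside gene symbols. The submitters' processing notes name HISAT2 2.0.4, Bowtie2 2.2.5, RSEM 1.2.12 and hg38, without their roles. Genes not in a library's table were set to 0. Of the members' expected counts 30.1% were not whole, and all were rounded.

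Rounded counts were tested with edgeR 4.0.16 (quasi-likelihood F test, two-sided, TMM, filterByExpr, the 6 libraries in 1 fit, Benjamini-Hochberg at 0.05 over 14926 genes), in R 4.3.3. TMM factors were 0.970 to 1.035. An SE is the log2 difference divided by the square root of F. Alternatives used DESeq2 1.42.0, limma 3.58.1 on log2(FPKM + 1) or log2(FPKM + 0.1), other scalings, other filters, a block for the replicate number, a fit of only the groups compared, and fits with each library left out. The GC correction (loess, span 0.3, GENCODE 29 transcripts, 96.2% of genes tested) was added after seeing the data. The fit was tested on simulated data. Depth was about equal in all libraries.

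The members and lists were chosen with earlier results of these data known. Genes named are RPL3, RPL3L, the stalk genes, variant paralogs with parents, the 5 highest and 5 lowest tested members, the 3 largest differences each way per comparison, RPSA, FAU, read-through genes, and from other lists the genes called and some of those with the smallest p. The remaining genes with the smallest p of a list had no adjusted p under 0.05. RPL27A, RPL13A with RPL13AP5, RPS19, RPS15, RPS26, CNN1, MYL2, MYH6 and MYH7 were named after their values were seen. Positions are from RefSeq, GRCh38.p14.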

Additional observations from a re-analysis of the deposited data

How the results depend on the processing

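With 2 libraries a group, small changes cannot be seen: the median SE of a member's log2 difference was 0.12. The number of members called was 0 under each of the 19 alternatives in all 3 comparisons. The number of all genes called did depend on the setting: 10, 2 and 54 became 72, 5 and 123 with DESeq2 and 48, 5 and 136 with the replicate number as a block, and over all alternatives the numbers lay between 0 and 220, 0 and 24, and 2 and 184, the highest each time without alcohol replicate 1. The replicate numbers were not taken to pair libraries in the main fit. Over all genes, deviations from group means correlated at 0.11 (control and alcohol), −0.02 (control and co-treated) and 0.04 (alcohol and co-treated). Over members the values were 0.05, −0.40 and 0.01. Such correlations cannot show a shift common to all members, and most members were higher in replicate 2 of every group, so they do not exclude pairing. With that block the members' medians were 0.05, −0.07 and −0.03. With 1 library left out, the median of members lay between −0.00 and 0.11 for alcohol against control, between −0.13 and 0.00 for co-treated against alcohol (−0.1323 without co-treated replicate 2, 0.0044 without replicate 1) and between −0.10 and 0.04 for co-treated against control (−0.1048 without co-treated replicate 2, 0.0409 without replicate 1), so leaving out 1 library can turn the sign of each, and the cause was not tested. The share of reads was 11.9%, 12.8% and 12.2% by summed FPKM in place of 3.89%, 4.14% and 3.92% of counts, since member transcripts are short. Of 380 alternative values of named members 375 kept their sign. The exceptions lay between co-treated and alcohol cells. RPL26L1 went to −0.0661 and RPL26 to −0.0209 without co-treated replicate 2 (highest 0.24 and 0.17 without replicate 1). RPS27L went to −0.0243 with the GC correction, −0.0258 with it and the block, and −0.1155 without alcohol replicate 2 (highest 0.19 without alcohol replicate 1). The log2 ratio of RPL3L to RPL3 has no value in the 4 libraries where RPL3L was at 0.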
